A study of Homo sapiens with 2 samples.

Results

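Checkpoint ligands are surface or secreted proteins through which a cell lowers or raises the activity of T cells, natural killer cells and macrophages. They were followed here in SW620, an established human colon carcinoma line derived from a nodal metastasis, cultured in the same medium without further treatment. RNA of cells with a control lentivirus was measured on 1 array, and RNA of cells made to express the circular RNA CDR1AS on the other. The labels do not give the vector used for CDR1AS or whether the cells were 1 clone or a pool. The members were the probes annotated to 10 genes: CD274, PDCD1LG2, CD276, PVR, NECTIN2, CD47, NT5E, LGALS9, ICOSLG and CEACAM1. Of 24459 gene probes, 12 belonged to 9 of these genes, and 8 of the genes were above background. Of all 18638 genes with a probe, 16685 were above background on at least 1 array. No probe carried the symbol LGALS9 in the annotation used, so this gene was not analysed here. Nor was any probe matched to circular CDR1AS, so its level is not given and the array labels could not be checked by it.

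PD-L1 (CD274) and PD-L2 (PDCD1LG2) bind PD-1 on activated T cells and inhibit them, and PD-L1 is induced in many epithelial tumour cells by interferon gamma. PVR and NECTIN2 bind the inhibitory receptor TIGIT and the activating receptor CD226, and NECTIN2 also binds inhibitory PVRIG. CD47 binds SIRPA on macrophages and inhibits phagocytosis, while the ectoenzyme NT5E makes adenosine, which acts on T cells through its own receptors. The comparison asked whether transcripts of these ligands differed when CDR1AS was expressed.

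None of the 8 measured ligand genes differed by 2-fold between the arrays. The largest difference was in CEACAM1, which was 1.34-fold lower on the CDR1AS array (log2 ratio −0.43). Unless said otherwise, ratios are CDR1AS over control on the log2 scale after an offset of 50, which pulls ratios of dim spots towards 0. By the brightest probe of each, the other 7 genes lay between −0.11 (ICOSLG) and 0.09 (NECTIN2). The second probes of CD274 (−0.27) and NECTIN2 (0.21) lay outside this range. Over all 16685 genes measured by the same rule, 222 were at or past 2-fold, or 1.33%. Of the 5562 dimmest genes, which include PDCD1LG2, CD276 and ICOSLG, 0 were past 2-fold. The offset compresses such spots, so these ligands do not inform the count. Among the 5561 genes in the middle of the level range 47 were 2-fold higher and 29 lower. Among the 5562 brightest these numbers were 79 and 67. A count of 0 among the few brighter ligands is therefore near the background. The median log2 ratio was 0.03 over the 8 genes and −0.01 over all genes. Of the 8 genes, 6 were above 0 and 2 below, against 47.2% above 0 among all genes. After subtraction of the local background 0 of the 8 were above 0 by the brightest probe in that setting. The first NECTIN2 probe (0.58) and the second ICOSLG probe (0.05), which were not the brightest there, were above 0. The median over all genes was then −0.02, and the share of all genes above 0 was not computed. The spread of the ratios differed with brightness. The SD of the ratio was 0.11 among the dimmest genes (5562), 0.28 in the middle and 0.39 among the brightest. Among the dimmest, 65.3% were at least as far from 0 as PDCD1LG2, 60.1% as CD276 and 15.1% as ICOSLG. In the middle range the shares were 77.3% for CD274, 98.1% for PVR and 59.4% for CD47, and among the brightest 74.1% for NECTIN2. With 1 array per group there was no replicate error and no test, and precision is limited by that number. The only error at hand was within an array: repeated spots of the positive controls (24 each) varied by 0.10 to 0.24 (SD, log2 scale). A difference between 2 such spots, 1 from each array, had an SD of 0.16 for one control and 0.28 for the other. The mean of the first control was 0.12 higher on the CDR1AS array and that of the second 0.55 higher, before normalization between arrays. The latter shift is larger than the ratio of CEACAM1. These controls were far brighter than the ligands, and none of these values measures the spread between cultures.

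**Figure D1:**
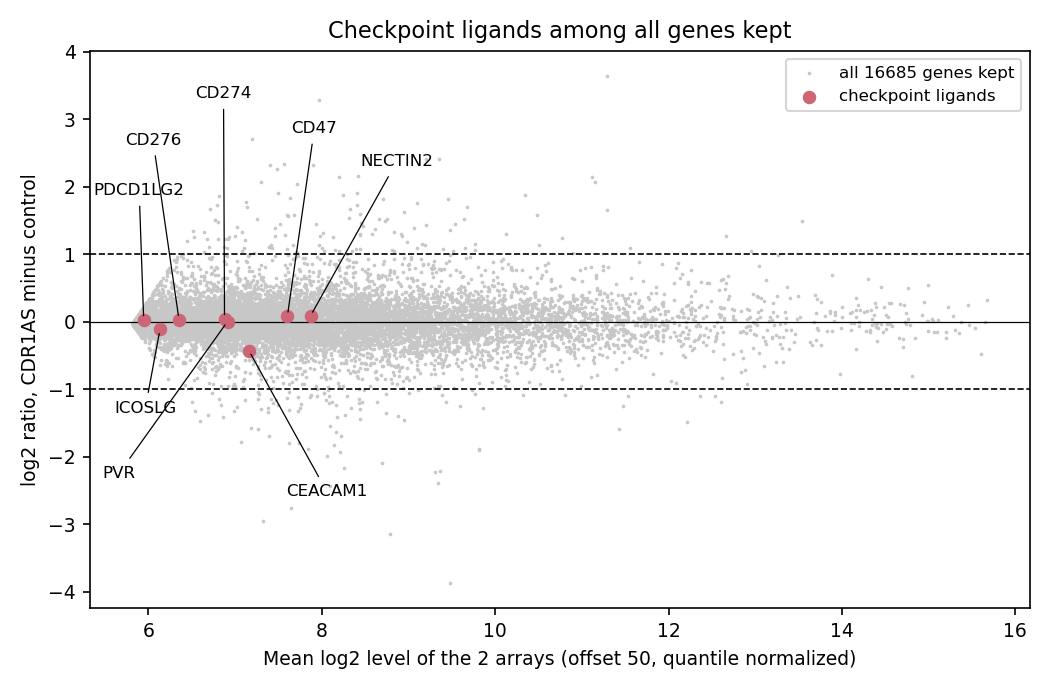
Each grey point is 1 of 16685 genes, with the mean log2 level of both arrays on the x axis and the log2 ratio of CDR1AS over control on the y axis, and dashed lines at 2-fold. The 8 checkpoint ligands (red, brightest probe) lie inside the dashed lines and outside the brightest part of the range, from −0.43 for CEACAM1 to 0.09 for NECTIN2.

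The ligand spots ranged from the level of the blanks to above the median gene probe, so each probe is given with its distance from the blank spots. The 384 blank spots averaged 65.9 ± 1.60 (SD) with the control virus and 69.5 ± 1.30 with CDR1AS. A probe counted as above background over the mean plus 2 SD, which was 69.1 and 72.1. This limit is low: it was passed by 4 of 96 negative control spots with the control virus and by 20 of 96 with CDR1AS. The median gene probe had a spot of 103 with the control virus and 109 with CDR1AS, and 7 of the 12 ligand probes were brighter than this on both arrays. Of the 12 ligand probes, 11 were above background on both arrays and 1, that of NT5E, on neither.

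**Figure D2:**
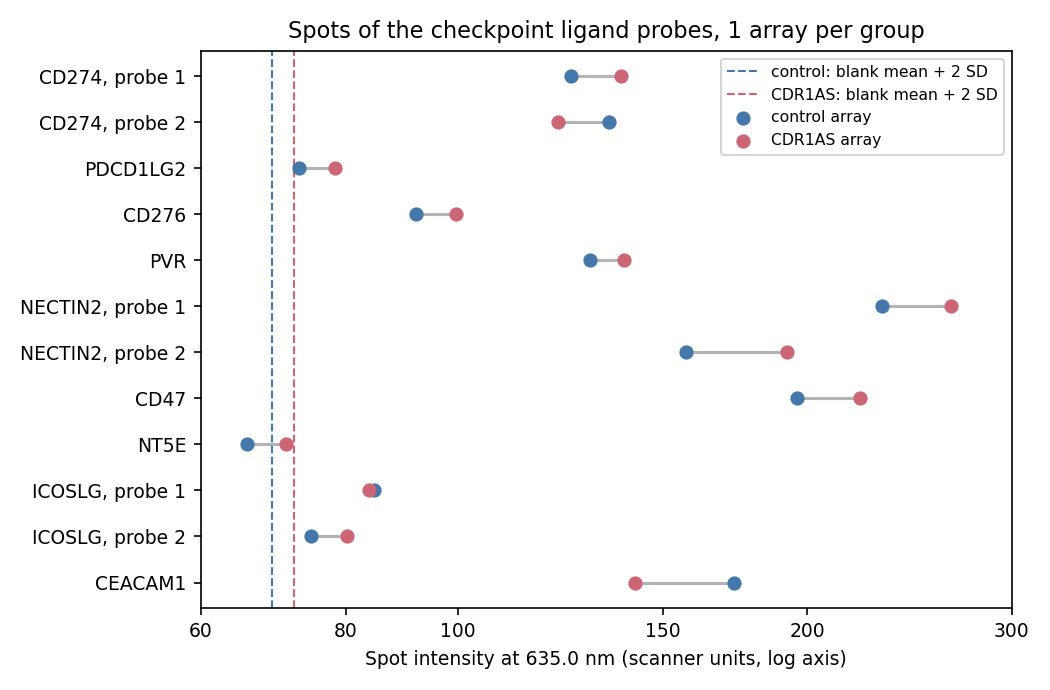
Spot intensity of the 12 probes (log axis, scanner units at 635 nm) on the control array (blue) and the CDR1AS array (red), with the background limits of 69.1 and 72.1 as dashed lines. NT5E lies below its limit on both arrays, PDCD1LG2 and the second ICOSLG probe lie just above it, and the spots of CEACAM1 and of the second CD274 probe are lower on the CDR1AS array.

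CD274, which encodes PD-L1, had 2 probes that differed in sign. The first had a spot of 125 with the control virus and 138 with CDR1AS, or 37.2 and 52.3 SD of the blank spots over their mean. The second had 135 with the control virus and 122 with CDR1AS, 42.9 and 40.0 SD over the blanks. On each array both probes were brighter than every negative control spot and every empty position. The log2 ratios were 0.04 for the first probe and −0.27 for the second. In the authors' deposited value table, which has no offset, the first probe went from 28.4 to 31.2 (log2 ratio 0.14) and the second from 32.7 to 23.8 (−0.46, or 1.37-fold lower). The SD of the blank spots alone gives each of these 2 ratios an SD of 0.05, so the probes disagreed by more than this part of the noise. Their ratios were 0.31 apart after the offset. Among 2161 genes with 2 measured probes the median distance was 0.11, and 12.7% were at least as far apart as those of CD274. The probes were annotated to different transcript models of CD274, and that of the first probe was not among the transcripts of the RefSeq table used for names. Which transcripts each probe detects was not tested.

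The stretch before the start of CD274 is shown because it holds letters matched by factors of the interferon response, the pathway through which PD-L1 is known to be induced. It is 250 bases of GRCh38.p14, chr9:5450292-5450541, plus strand, from RefSeq's table of promoters, and capitals mark matches to the core of the interferon-stimulated response element and to the STAT motif.
CD274: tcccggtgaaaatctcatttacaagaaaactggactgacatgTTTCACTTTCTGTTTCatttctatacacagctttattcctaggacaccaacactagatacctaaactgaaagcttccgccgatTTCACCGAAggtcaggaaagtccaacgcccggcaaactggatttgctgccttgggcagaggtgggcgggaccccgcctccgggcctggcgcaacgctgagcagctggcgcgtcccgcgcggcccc
The response element core was searched on both strands as GAAA, any 2 bases and GAAA. They matched at a pair of overlapping positions, 208 to 199 and 202 to 193 bases before the start, both on the minus strand of the window. The STAT motif, TTC and GAA with any 3 bases between, reads the same on both strands and matched 125 to 117 bases before the start. Of 35116 promoter windows of this length, 3.02% held the first motif and 6.57% the second. A match is a description of letters and not a binding site.

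PDCD1LG2, which encodes PD-L2, was close to background. Its spot was 72.9 with the control virus and 78.3 with CDR1AS, 4.34 and 6.79 SD over the blanks. On each array 2 of 96 negative control spots were at least as bright. The log2 ratio was 0.03. In the authors' deposited table the value went from 3.4 to 4.1, a log2 ratio of 0.27 whose SD from the blank spots alone was 0.39. A difference of this size in PD-L2 transcript was therefore not detectable at this brightness. PDCD1LG2 follows CD274 directly on chromosome 9 in the RefSeq annotation. The genes around the pair also stayed within 2-fold, with log2 ratios of −0.31 for PLGRKT on one side and −0.00 for RIC1 on the other. From JAK2 to BRD10, the measured neighbours ran from −0.31 to 0.38 (RLN2). These genes were named for their position.

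CD276 and ICOSLG belong to the same B7 family as the PD-1 ligands. CD276 encodes B7-H3, whose receptor is not settled. Its probe had a spot of 92.0 with the control virus and 99.5 with CDR1AS, 16.3 and 23.1 SD over the blanks, and a log2 ratio of 0.03. The deposited values were 12.5 and 13.7 (0.13, with an SD of 0.11 from the blanks). ICOSLG, the ligand of the costimulatory T cell receptor ICOS, had 2 probes with opposite signs. The first had 84.6 with the control virus and 83.7 with CDR1AS, 11.7 and 11.0 SD over the blanks, with a log2 ratio of −0.11. The second had 74.6 and 80.1, 5.44 and 8.19 SD over the blanks, with a log2 ratio of 0.03. Their deposited log2 ratios were −0.47 (SD from the blanks 0.18) and 0.22 (0.32). Of the genes with 2 measured probes, 39.3% were at least as far apart as these. ICOSLG therefore had no direction common to its probes.

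PVR and NECTIN2, the ligands of TIGIT, CD226 and, for NECTIN2, PVRIG, were measured clear of the blanks. PVR had a spot of 130 with the control virus and 139 with CDR1AS, 40.1 and 53.2 SD over the blanks. Its log2 ratio was 0.00, and 97.3% of all genes were at least as far from 0. In the deposited table PVR went from 30.6 to 31.7 (0.05). The first NECTIN2 probe had 232 with the control virus and 266 with CDR1AS, 103 and 151 SD over the blanks, and a log2 ratio of 0.09. The second had 157 and 192, 57.0 and 94.5 SD over the blanks, and a log2 ratio of 0.21. Both NECTIN2 probes were thus above 0, and their deposited values gave log2 ratios of 0.19 and 0.37. The second was annotated to the same transcript as the first.

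CD47, the antiphagocytic ligand, had a spot of 196 with the control virus and 222 with CDR1AS, 81.2 and 117 SD over the blanks. Its log2 ratio was 0.08, and 53.1% of all genes were at least as far from 0. The deposited values were 62.0 and 69.7, a log2 ratio of 0.17. NT5E, which encodes CD73, was not well above background on either array. Its spot was 65.8 on the control array, at the mean of the blanks, and 71.0 on the CDR1AS array, 1.17 SD over them. At least as bright were 76 of 96 negative control spots with the control virus and 34 with CDR1AS. No fold is given for NT5E.

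CEACAM1, an adhesion molecule of epithelial and immune cells that binds itself and, as reported, the T cell receptor HAVCR2, had the largest difference of the ligands. Its spot was 173 with the control virus and 142 with CDR1AS, 67.1 and 55.5 SD over the blanks. No negative control spot or empty position was as bright on either array. The log2 ratio was −0.43, and 8.84% of all genes were at least as far from 0. Among the 5561 genes in the middle of the level range, where it lies, ratios had an SD of 0.28 and the share was 8.51%. The deposited value went from 51.3 to 33.0, or 1.55-fold lower (log2 ratio −0.64, with an SD of 0.03 from the blanks alone). The ratio of CEACAM1 was below 0 under each of the 8 alternative settings that kept it, from −0.64 to −0.34. It had 1 probe, and CEACAM genes are alike in sequence, so transcripts of relatives may contribute to the spot.

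The stretch before the start of CEACAM1 is shown beside that of CD274 because, of the 9 ligand genes with a window in the promoter table, these were the pair that held the response element core. It is 250 bases of GRCh38.p14, chr19:42528482-42528731, minus strand, from RefSeq, with the match in capitals.
CEACAM1: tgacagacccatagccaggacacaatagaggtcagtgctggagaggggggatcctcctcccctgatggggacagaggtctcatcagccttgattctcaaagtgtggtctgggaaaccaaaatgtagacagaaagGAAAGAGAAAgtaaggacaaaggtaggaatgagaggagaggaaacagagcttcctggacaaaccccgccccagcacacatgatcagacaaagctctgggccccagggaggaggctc
The match lies 116 to 107 bases before the start, on the plus strand of the window. The table had no window for PDCD1LG2. A strict NF-kB motif (GGG, any 2 bases, TTTCC, both strands) was in 0 of the 10 ligand windows and in 1.73% of all windows. The wider form (GGG, any 5 bases, CC), which includes the strict one, was in all 10 and in 54.4% of all windows, so it does not set the ligands apart. Across measured genes, 446 with the response element core before their start had a median log2 ratio of −0.01, with 6 past 2-fold higher and 5 lower. The 12653 without it had a median of −0.01 too, with 95 higher and 56 lower. With the STAT motif were 1009 genes, 9 of them past 2-fold higher and 5 lower. Without it were 12090, 92 of them higher and 56 lower. Both medians were −0.01. Differences between genes with and without a motif were not tested.

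The difference each probe could show depended on its brightness, since the offset compresses dim spots. To be 2-fold higher on the offset scale, the first NECTIN2 probe would need a 2.30-fold rise in corrected intensity over control, and CD47 2.37-fold. The rise needed would be 2.45-fold for CEACAM1 and 2.69-fold for the second CD274 probe, though both were lower with CDR1AS. For CD276 it would be 3.68-fold, and for PDCD1LG2 6.68-fold. A 2-fold lower ratio would need a larger difference than a 2-fold higher one, and that difference was not computed. PDCD1LG2, CD276 and both ICOSLG probes were less than 50 over the control blanks. With an offset of 50, even complete loss would not make such probes 2-fold lower. In the deposited table, which has no offset, 1118 of 17004 genes (6.57%) were past 2-fold, and 0 of the 8 ligand genes were. The ligands thus stayed within 2-fold there too, with log2 ratios from −0.64 to 0.27 by their brightest probes.

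**Figure D3:**
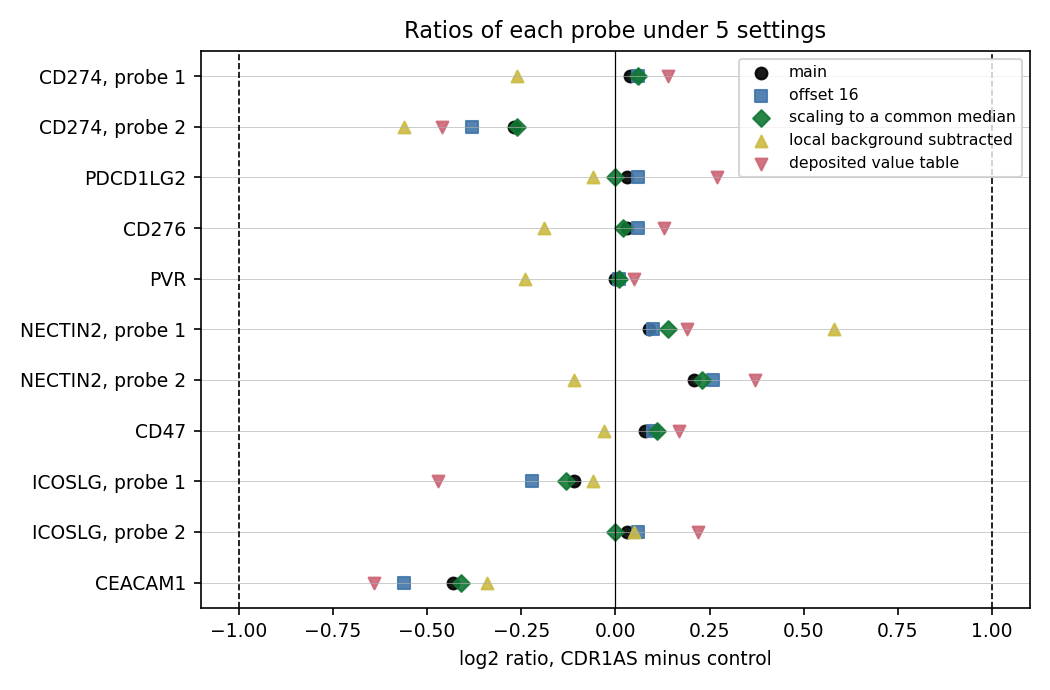
Log2 ratio of CDR1AS over control for the 11 measured probes in the main setting (black circles) and under a smaller offset, scaling to a common median, subtraction of the local background, and in the deposited table, with dashed lines at 2-fold. No point reaches the dashed lines, CEACAM1 and the second CD274 probe stay below 0 in each, and the first CD274 probe, PDCD1LG2, CD276, PVR, CD47 and the second NECTIN2 probe are below 0 after subtraction of the local background (yellow triangles).

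The signs of most ligand ratios depended on how background was treated. After subtraction of the authors' local background column the first CD274 probe was at −0.26 and the second at −0.56. CD276 was then at −0.19, PVR at −0.24 and CD47 at −0.03. NECTIN2 was at 0.58 by its first probe and −0.11 by its second. The local background around the first NECTIN2 probe was 198 with the control virus and 119 with CDR1AS. The part of the local background in these values was not tested. Below 0 in both this setting and the main one were the second CD274 probe, the first ICOSLG probe (−0.06) and CEACAM1 (−0.34).

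Other genes of the same pathways also stayed within 2-fold in the main setting, but many of their ratios depended on the background. Of 127 measured genes of the lists beside the ligands, 42 had another sign after subtraction of the local background. Among 25 further checkpoint ligands and enzymes, 22 were measured, 6 above 0 and 16 below, with a median of −0.05. The highest were CD24 (0.53), a sialoglycoprotein reported as a ligand of macrophages' Siglec-10, and the adhesion ligand CD58 (0.28). The lowest were TNFRSF14 (−0.68), which encodes HVEM, the ligand of BTLA, and the galectin gene LGALS3 (−0.47). After subtraction of the local background CD24 was at −0.02, CD58 at 0.04, TNFRSF14 at −0.22 and LGALS3 at −1.04. In the deposited table TNFRSF14 was past 2-fold, with 51.1 for the control and 23.6 for CDR1AS (2.17-fold lower). CD24 was past 2-fold there too, with 5.8 for the control and a 3.45-fold higher value for CDR1AS, as was the tryptophan-degrading enzyme gene IDO1, near background, with 1.3 and 3.0. In the 12 lists beside the ligands 0 genes were past 2-fold in the main setting, against 1.33% of all genes. The 5562 dimmest of all genes had 0 past 2-fold in that setting, so list genes as dim as these do not inform the count. After subtraction of the local background HLA-F (3.35, main setting −0.22), PTPN2 (−1.08, main −0.16) and LGALS3 were past 2-fold. HLA-E, whose product presents peptides to the receptor NKG2A, had a ratio of −0.45, and 0.31 after that subtraction.

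Genes reported to act on PD-L1 went both ways. Of 30 listed, 25 were measured, 14 above 0 and 11 below, with a median of 0.05. With the local background subtracted SPOP (0.10 in the main setting) was past 2-fold higher, and the deubiquitinase gene OTUB1 (0.23) was at −1.97. The highest were CUL3 (0.47, other probe 0.35), the scaffold of a ubiquitin ligase that with SPOP acts on PD-L1, and HIF1A (0.40, other probe 0.55), a hypoxia factor. The lowest were B3GNT3 (−0.53), a glycosyltransferase reported to modify PD-L1, and CMTM4 (−0.47), which keeps PD-L1 at the surface. After that subtraction CUL3 was at 0.99, HIF1A at 0.38, B3GNT3 at −0.10 and CMTM4 at 0.01. Of the interferon gamma route, the receptor chain genes IFNGR1 and IFNGR2 had ratios of 0.20 and −0.11 (other probe of IFNGR2 −0.49), the kinase genes JAK1 and JAK2 of −0.14 and −0.04, and the factor genes IRF1 and IRF2 of −0.24 and −0.16. After that subtraction JAK1 was at 0.16, JAK2 at 0.01, IFNGR1 at 0.05, IFNGR2 at −0.40, IRF1 at −0.51 and IRF2 at −0.17.

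Genes around the adenosine made by NT5E had the highest median of these lists, 0.12 over 12 measured genes, with 8 above 0, and a median of 0.01 after subtraction of the local background. The adenosine receptor genes ADORA2A (0.27) and ADORA2B (0.24, other probe 0.01) were highest. The nucleoside transporter gene SLC29A1 (−0.37) and the ectoenzyme gene ENPP1 (−0.07) were lowest. ADORA2A was near the limit on the control array, with a spot of 70.8, and had 87.3 on the CDR1AS array. Its deposited values were 2.4 and 8.2, or 3.42-fold higher, a ratio that rests on a control spot near the blanks. ENTPD1, which encodes CD39, the enzyme upstream of NT5E, had a spot of 548 with the control virus and 595 with CDR1AS and a ratio of 0.00. Local background subtraction put ADORA2A at 0.00, ADORA2B at 0.03, SLC29A1 at −0.17, ENPP1 at −0.09 and ENTPD1 at −0.78.

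Among 9 measured partners of CD47 the median was −0.02, with ITGAV (0.47), an integrin subunit, and BNIP3 (0.24) highest. QPCT (−0.75), a glutaminyl cyclase, and QPCTL (−0.10, other probe 0.08), the isoenzyme that modifies the SIRPA binding site of CD47, were lowest. With the local background subtracted QPCT was at 0.48, so its direction depended on the background, QPCTL was at −0.13, ITGAV at 0.40 and BNIP3 at 0.07. The spots of BNIP3 and of THBS1, a ligand of CD47, were near the blanks on the control array. Their deposited values were past 2-fold, 1.8 and 6.9 for BNIP3 and 2.7 and 6.6 for THBS1. Of the nectin family and its receptors, all 6 measured genes other than the ligands PVR (0.00) and NECTIN2 (0.09) were below 0. After subtraction of the local background 5 of these 6 were. Their median in the main setting was −0.10, from AFDN (−0.30), the nectin-binding adaptor, and NECTIN4 (−0.17) to NECTIN1 (−0.07) and NECTIN3 (−0.02). After that subtraction AFDN was at −0.78, NECTIN4 at −0.71 and NECTIN1 at 0.04.

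The galectin genes (9 measured, none of them LGALS9) had a median of −0.07, and after subtraction of the local background LGALS3BP was at 1.23 (main setting 0.02). LGALS8 (−0.51) and LGALS3 were lowest, and LGALS1 (0.07) and LGALS13 (0.04, and −0.18 after that subtraction) highest. The 9 other measured CEACAM genes had a median of −0.06 and lay between −0.16 (CEACAM3) and 0.07, so none was as far from 0 as CEACAM1 on the offset scale. CEACAM6 and CEACAM19, both at 0.07, were the highest, and CEACAM21 (−0.12, other probe −0.17) followed CEACAM3 among those above background on both arrays. After that subtraction CEACAM3 was at −0.00, CEACAM6 at −0.12, CEACAM19 at −0.31 and CEACAM21 at 0.01. CEACAM5, which encodes the carcinoembryonic antigen, had a spot of 69.9 with the control virus and 69.4 with CDR1AS, just over the limit on the first array and at the mean of the blanks on the second. CEACAM4 and CEACAM5 had deposited values of 3.8 and 2.0 for the control and were left empty for CDR1AS.

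**Figure D4:**
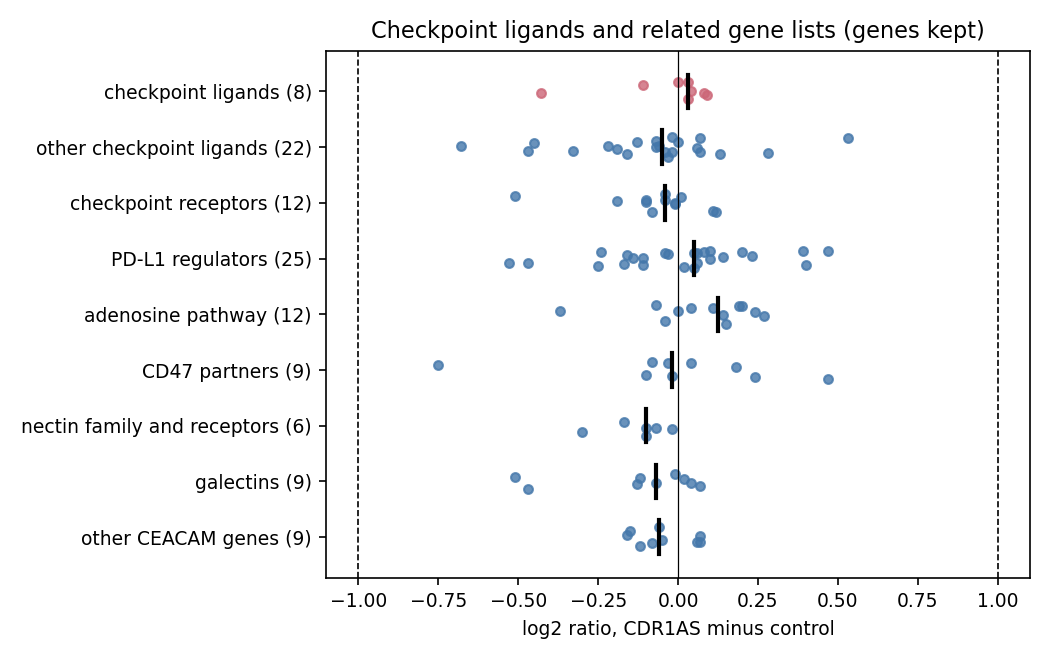
Log2 ratio of CDR1AS over control for each measured gene of the checkpoint ligands (red) and 8 related lists (blue), with the list median as a black bar, the number of genes in parentheses and dashed lines at 2-fold; vertical scatter within a list has no meaning. No gene reaches the dashed lines, and list medians lie between −0.10 and 0.12.

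The receptors of these ligands, which are mainly leukocyte genes, were partly above background. Of 16 with a probe, 12 were above the limit, with a median of −0.04. The highest were KLRG1 (0.12) and CD28 (0.11), and the lowest TNFRSF4 (−0.51, other probe −0.30) and LAG3 (−0.19). With the local background subtracted KLRG1 was at −0.04, CD28 at −0.23, TNFRSF4 at −0.09 and LAG3 at −0.17. CD28, the T cell costimulatory receptor, had a spot of 805 with the control virus and 944 with CDR1AS, 462 and 672 SD over the blanks. ICOS, CD96 and CD226 were not above background on either array.

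Most markers of the labelled cell type were above background, but so were most gene probes. The limit was passed by 84.4% of the 24459 gene probes with the control virus and by 87.2% with CDR1AS. Counts of markers above it therefore do not identify the cell type. Of 12 epithelial or colon markers with a probe, 10 were above background on both arrays, among them KRT18, EPCAM, KRT19, VIL1 and CDH1. CDH17 (spots of 67.9 on the control and 73.3 on the CDR1AS array) and CEACAM5 passed on 1 array only. KRT20 (82.8 and 92.4) and CDX1 (83.2 and 83.4) passed but were dimmer than the median gene probe. KRT8 had no matched probe. The ratios of the 12 markers ran from −0.82 (CDX2) and −0.54 (EPCAM, other probe −0.76) to 0.19 (VIL1) and 0.83 (KRT19), with a median of −0.03 and 0 past 2-fold. Local background subtraction put KRT19 at 2.02, EPCAM at −1.05, CDX2 at −0.37 and VIL1 at −0.27. Of 10 leukocyte markers with a probe, 8 were above background, from −0.13 (CD14) and −0.09 (LYZ) to 0.17 (NKG7) and 0.24 (CD79A), while PTPRC and CD3D were on neither array. CD79A had a spot of 331 on the control array. Of 7 fibroblast markers 4 were above background, from −0.34 (LUM) and −0.07 (DCN) to −0.05 (THY1) and 0.06 (PDGFRB), while COL1A1, COL1A2 and COL3A1 were not on either array. Of 6 endothelial markers 5 passed, with KDR at −0.15 and VWF at 0.04. PECAM1 was above background on the CDR1AS array only, with a spot of 98.3 against 66.4. Its ratio was 0.51 with the control side set to the lowest value above background, 1.03 with an offset of 16 and 0.03 after subtraction of the local background. Its deposited value was empty for the control and 13.2 for CDR1AS. NKG7 was past 2-fold in the deposited table, with 3.1 and 6.7. CDX2 was past 2-fold there too, with 49.8 for the control and 18.2 for CDR1AS, and was at −1.15 with an offset of 16. Local background subtraction put LUM at 0.36, PDGFRB at −0.37, DCN at −0.64, NKG7 at −0.00 and VWF at −0.11. The part of other cell types in the ligand values was not tested.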

How the data were processed

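Total RNA of 2 SW620 cultures was amplified, coupled to Cy5 and hybridised to 1-colour Toray arrays, per the labels' protocols. Intensity, per the file headers, is a spot's median brightness at 635 nm, scanned at 3 gains, and how these were joined is not stated. The spot intensity itself was not background corrected by the authors. Values were corrected by normexp without the local background (offset 50), quantile normalized and put on the log2 scale with limma 3.58.1 in R 4.3.3. The brightest probe stood for each gene, which was kept if above background on at least 1 array, and a side below it was set to the lowest value above it. One flagged spot per array was left out. The deposited value table was a straight line of the spot intensity (largest residual 0.0514 and 0.0573 units), with both column medians at 25.0, so its scale and direction are known. Its line reached 0 at a spot of 65.8 with the control virus and 69.4 with CDR1AS. The blank spots averaged 65.9 and 69.5, so deposited values count from about the blank mean. Ratios were recomputed under 9 alternatives. The steps were tested on simulated data. Members and lists were chosen with earlier results of these data known. Named genes were all members and, per list, the 2 highest and 2 lowest ratios above background on both arrays. Other named genes were chosen after their values were seen: those past 2-fold in another setting, at the background limit or on neither array, neighbours of CD274, HLA-E, ENTPD1, defining cell type markers and the interferon gamma genes. Genes of a like pattern were not sought, since each gene had 1 ratio. Probe symbols are the platform's, and RefSeq's GRCh38.p14 tables gave promoters.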

Additional observations from a re-analysis of the deposited data

How the results depend on the processing

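The count of ligand genes past 2-fold was 0 in the main setting and in all 9 alternatives. Their median log2 ratio stayed within 0.15 (the mean SD of repeated control spots) of the main 0.03 in 8 alternatives, and was −0.15 after subtraction of the local background, where the brightest probe of CD274 and of NECTIN2 is the second one. Of 66 ratios of single ligand genes under the alternatives, 54 kept their sign as rounded to 2 decimals. A rounded 0.00 counted as neither sign. PVR, at 0.00 in the main setting and just above 0 before rounding, was thus credited with 3 of 8. With the stricter filter (2 times the limit on both arrays) NECTIN2 and CD47 alone remained. Over all genes, the main 222 genes past 2-fold (126 higher, 96 lower) became 401 with an offset of 16 (229 and 172), 1329 with the local background subtracted (744 and 585), 1118 in the deposited table (674 and 444) and 140 with the stricter filter, which tests fewer genes (75 higher). The cause of the other changes was not tested. No paired analysis was possible because each group had 1 array. Brightness over the blanks limited PDCD1LG2, NT5E and the second ICOSLG probe most.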
